A study of Mus musculus with 16 samples.

Results

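The comparison is that of heart endothelial cells from Erg and Fli1 double knockout mice with those from wild type mice, in 2 knockout and 2 control libraries. The libraries were chosen by tissue and genotype label and are 4 of the 16 in the series, the others being 6 from liver and 6 from lung. Both heart groups came from mice given tamoxifen, which induces the deletion, and were taken at day 10 after it. The controls, labelled wild type, had tamoxifen too. An antibody against VE-cadherin was injected into the living animal, the tissue was digested with collagenase and dispase, and live cells negative for CD45 and positive for CD31 and VE-cadherin were sorted. The Cre driver, the age of the mice and the number of animals behind each library are unknown here, so the spread between libraries may be partly technical.

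ERG and FLI1 are closely related transcription factors of the ETS family, which bind a GGAA core in DNA and are active in endothelial cells throughout the body. They are known for holding endothelial genes on and inflammatory genes off, and for overlapping in this role. Most endothelium of the heart lines capillaries that pass fatty acids to cardiomyocytes, for which it carries a set of lipid-handling proteins. Arterial, venous and endocardial endothelium make up the rest.

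The heart libraries held 33812628 to 38127197 counts over genes. Levels are given in CPM, counts scaled by the effective library size, for both libraries of each group. "Rose" and "fell" are used of genes with an edgeR quasi-likelihood adjusted p below 0.05 (Benjamini-Hochberg, over all 19646 genes tested), and log2 stands for the log2 fold change, knockout over control, with its standard error (SE). On a principal component analysis of the 4 heart libraries the first component, with 67.8% of the variance, separated the groups. Knockout 2 was the only male heart library, with 0.768 CPM of the female transcript Xist against 701 to 949 CPM in the other 3. Without it, 2529 of the 3786 calls described here kept their direction and threshold.

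Markers of cells that the sort should have removed, or that are foreign to the heart, differed between the groups. Of 24 leukocyte markers 22 could be tested, and 10 of them rose while 0 fell, where 10.2% of all genes rose. Leaving out 1 library left 3 to 9 rises, fewest without control 1. Their summed level was 238 and 366.7 CPM in knockout libraries, against 34.6 and 70.1 CPM in controls. Among these, Lyz2 (lysozyme) had 78 and 168 CPM in knockout libraries, against 6.38 and 22.9 CPM in controls. The macrophage genes Csf1r (adjusted p = 0.0651) and Adgre1 (adjusted p = 0.0624) missed the threshold, but passed it under 7 and 5 of 14 alternative settings. The T cell gene Cd8a had 0.0734 and 0 CPM against 0.145 and 0 CPM. Surfactant and airway genes were also present: Sftpc had 46 and 81.8 CPM in knockout libraries, against 0.929 and 1.3 CPM in controls (log2 5.83, SE 0.802, adjusted p = 0.00034). That was 4.28% and 7.6% of the mean level in lung control libraries, and 39.1% and 69.4% of that in lung knockout libraries. Of 13 lung epithelial genes, a list chosen after the values were seen, 11 were past the threshold in the same direction as Sftpc, and Ager and Foxj1 were not. Leaving out 1 library ended the call for Lyz2 without control 1 (adjusted p up to 0.0743). The part of these transcripts in the results that follow was not tested.

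Markers of heart muscle, stroma and other vessels differed less. The summed level of 26 cardiomyocyte markers was 219.2 and 196.4 CPM in knockout libraries, against 279 and 432.9 CPM in controls, and 6 fell. Of all tested genes 9.09% fell and 10.2% rose. On leaving out 1 library 0 to 4 fell, against 11 in the heart samples alone, 13 by limma voom and 3 with the description number as a block. The 15 fibroblast markers summed to 2919 and 3790 CPM in knockout libraries, against 2232 and 2592 CPM in controls, with 1 riser, Pi16, whose call ended on leaving out 1 library: Pi16 without knockout 2, control 1 or control 2 (adjusted p up to 0.088). The 15 mural cell markers summed to 867 and 1108 CPM in knockout libraries, against 1287 and 1354 CPM in controls, with 1 call each way, and the 10 lymphatic markers tested had 0 calls. In a fit of the heart samples alone the calls were 6 higher and 0 lower for fibroblast, 4 higher and 4 lower for mural and 3 higher and 1 lower for lymphatic markers. In bulk samples fewer cells of a type and less RNA per cell cannot be told apart. Cdh5, which encodes VE-cadherin, had 1920.4 and 2234 CPM in knockout libraries, against 2630.2 and 2818 CPM in controls. Pecam1, which encodes CD31, had 1773 and 2118 CPM against 1766 and 2022 CPM. Cells were sorted on both proteins, so these levels follow the sort and do not check the endothelial label independently.

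**Figure D1:**
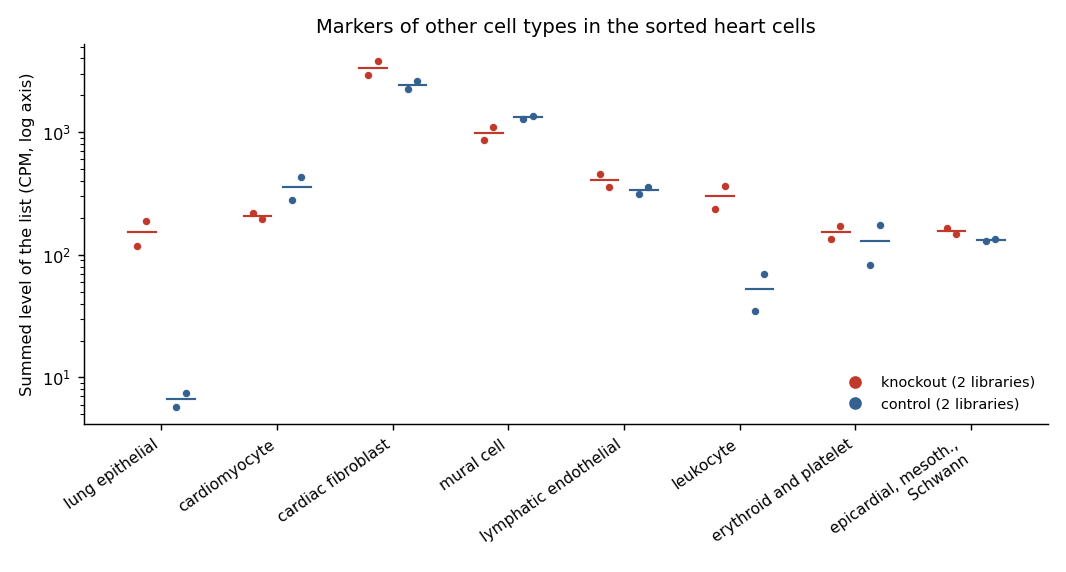
Summed level in CPM, on a log axis, of the markers of 8 other cell types in each heart library, knockout in red and control in blue, with a bar at the mean of each group. Leukocyte and lung epithelial markers lie higher in both knockout libraries (238 and 366.7 CPM, and 117.7 and 189 CPM) than in both controls (34.6 and 70.1 CPM, and 5.75 and 7.51 CPM).

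The targeted genes did not separate the groups clearly at the level of whole-gene counts. Erg had 158 and 155 CPM in knockout libraries, against 204 and 229 CPM in controls (log2 −0.47, SE 0.159, adjusted p = 0.0538). Both knockout libraries lay below both controls, as was so for 29% of all tested genes. Erg passed the threshold under 4 of 14 alternative settings. Fli1 had 207 and 232 CPM in knockout libraries, against 198 and 236 CPM in controls, with overlapping groups (log2 0.02, adjusted p = 0.978). Where the deletions lie within the genes is unknown here and reads from the remaining exons are counted too, so these values do not check the knockout label. Gm39317, Kcnj1 and Kcnj5, which neighbour Fli1 on chromosome 9, rose. Kcnj1, a potassium channel gene of the kidney (chromosome 9, 32372493 to 32399197, plus strand), had 45.7 and 48.3 CPM in knockout libraries, against 0.058 and 0.222 CPM in controls (log2 8.34, SE 0.514, adjusted p = 1.17e-06). Kcnj5, another inward rectifier channel, had 46.4 and 36.5 CPM in knockout libraries, against 1.04 and 1.97 CPM in controls. Gm39317 had 41.1 and 35.6 CPM in knockout libraries and no count in either control, which places it at least 903-fold higher, taking 3 counts over both controls as the floor. Kcnj5 and Gm39317 were named after their values were seen.

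Heart endothelium changed widely. Of the 19646 genes tested, 3786 (19.3%) passed, 2001 (10.2%) of them higher and 1785 (9.09%) lower in the knockout. At least 2-fold changes were found for 1301 risers (6.62%) and 894 fallers (4.55%). In none of the 3786 did the 4 libraries overlap, while 30% of all tested genes had both knockout libraries above both controls and 29% had both below. The median log2 change was 1.47 among risers, −1.0 among fallers and 0.01 over all tested genes. With 2 libraries a group the number of calls depended on each of them: it was 1793 without knockout 1, 2944 without knockout 2, 1912 without control 1 and 1883 without control 2.

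**Figure D2:**
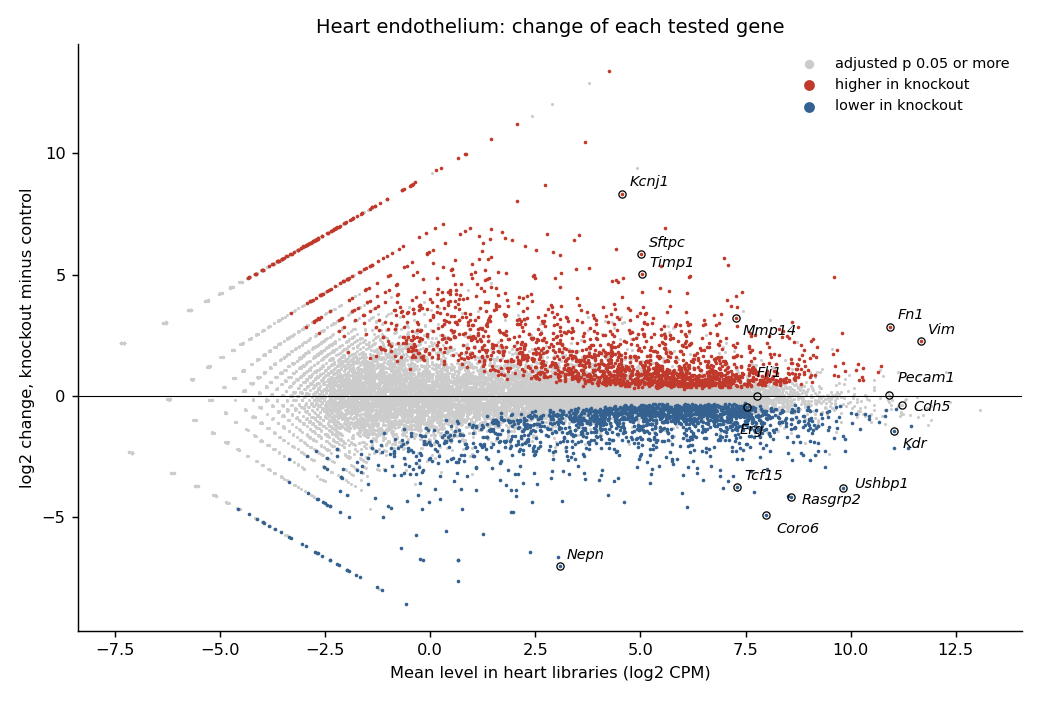
Mean level of each tested gene in the heart libraries (log2 CPM, horizontal) against its log2 change, knockout minus control (vertical), with the 2001 genes that were higher in red and the 1785 that were lower in blue. The diagonal rows at the left are genes with few or no counts in one group, and among the named genes the log2 changes run over Kcnj1 (8.34), Fn1 (2.86), Ushbp1 (−3.81) and Cdh5 (−0.39).

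The falls with the largest log2 changes among genes of at least 10 CPM were led by Nepn, which encodes the secreted protein nephrocan and had 0.147 and 0.102 CPM in knockout libraries, against 18.7 and 14.9 CPM in controls (log2 −7.03, SE 0.645, adjusted p = 5.82e-05). Cyp1a1, a target of the aryl hydrocarbon receptor, had 0.171 and 0.154 CPM in knockout libraries, against 10.1 and 22.7 CPM in controls (log2 −6.63, adjusted p = 0.00375, but 0.178 by limma voom). Sez6 had 0.0734 and 0.154 CPM in knockout libraries, against 9.14 and 11.2 CPM in controls. Several genes of high level in control hearts were nearly lost. Coro6, an actin-binding coronin, had 16.6 and 16.2 CPM in knockout libraries, against 449 and 527 CPM in controls (log2 −4.90, SE 0.842, adjusted p = 0.00144). Rasgrp2, an activator of the small GTPase Rap1, had 38.4 and 43.6 CPM in knockout libraries, against 821 and 635 CPM in controls (log2 −4.15, SE 0.365, adjusted p = 2.38e-05). Slc28a2, a nucleoside transporter whose close copy Slc28a2b makes its count uncertain, had 36.6 and 43.3 CPM against 760.0 and 623 CPM, and C1qtnf9, a secreted protein related to adiponectin, had 15.7 and 34.1 CPM against 355 and 422 CPM. The others were Clmn (log2 −4.38), Krt222 (−4.38), Capn12 (−4.32), Akr1c19 (−4.09) and Mfng (−4.02).

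By CPM, the largest falls were in Ltbp4, Cxcl12, Klf2, Kdr, Ushbp1 and Mgll. Ltbp4, which tethers latent TGF-beta to the matrix, had 781 and 1174 CPM in knockout libraries, against 4106 and 4476 CPM in controls (log2 −2.13, SE 0.337, adjusted p = 0.000821). Cxcl12, a chemokine that arterial and capillary endothelium makes, had 614 and 923 CPM in knockout libraries, against 3295 and 3496 CPM in controls (log2 −2.14, adjusted p = 0.0348). Klf2, a flow-induced factor, had 1417 and 1883 CPM against 3473 and 4267 CPM (log2 −1.23, adjusted p = 0.0345), and Mgll, monoacylglycerol lipase, had 269 and 377 CPM against 1448 and 1654 CPM (log2 −2.27, adjusted p = 0.000344). Cxcl12 and Klf2 fell in the full data but each call ended on leaving out any 1 heart library: Cxcl12 without knockout 1, knockout 2, control 1 or control 2 (adjusted p up to 0.209) and Klf2 without knockout 1, knockout 2, control 1 or control 2 (adjusted p up to 0.215). Both also ended with the description number as a block, at adjusted p = 0.0837 for Cxcl12 and 0.0799 for Klf2, and that of Klf2 ended without the lung samples (0.0746).

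Among rises, Vim and Fn1 stood out by CPM. Vim, the intermediate filament protein vimentin, had 5108 and 5677 CPM in knockout libraries, against 1170.2 and 1100.0 CPM in controls (log2 2.25, SE 0.274, adjusted p = 0.000153). Fn1, fibronectin, had 3333 and 3615 CPM in knockout libraries, against 479 and 477 CPM in controls (log2 2.86, SE 0.493, adjusted p = 0.00145). Emp1, a membrane protein, had 1665 and 1397 CPM against 246 and 261 CPM (log2 2.59, adjusted p = 4.02e-05), the actin crosslinker Flna had 2671 and 2055 CPM against 1136 and 885 CPM, and the cortical linker Msn had 2284 and 1945 CPM against 1157 and 1001 CPM. The call for Msn ended on leaving out 1 library: Msn without control 2 (adjusted p up to 0.0595).

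By log2 change, the rises were led by genes close to silent in controls. Hbb-y, an embryonic globin, had 15.4 and 35.6 CPM in knockout libraries, and summed counts of 2020 against 1, a ratio of 1780.0 with a 95% counting interval of 320.0 to 70400.0. Hmga2, a chromatin protein of embryonic cells, had 15.6 and 10.7 CPM in knockout libraries, and summed counts of 1055 against 2, a ratio of 465 with a 95% counting interval of 129 to 3850.0. Sh2d5 had 148 and 42.4 CPM in knockout libraries, against 0.929 and 0.637 CPM in controls (log2 6.92, adjusted p = 0.000118), so that the knockout libraries were unequal. Disp2 had 29.5 and 16.2 CPM against 0.174 and 0.277 CPM, Gap43, a growth cone protein of neurons, 47.9 and 35.8 CPM against 0.609 and 0.637 CPM, and Add2, a membrane skeleton protein, 16 and 6.71 CPM against 0.145 and 0.194 CPM. Spp1 (osteopontin, 31.7 and 10.4 CPM against 0.406 and 0.0831 CPM) and Arg1 (arginase, 16.5 and 13.5 CPM against 0.319 and 0.166 CPM) are also macrophage genes, and Slc34a2, Sftpc and Sftpa1 belong to the lung epithelial list above. The next after leaving out lung epithelial genes, named after their values were seen, were Clca3a1, with 242 and 255 CPM in knockout libraries, against 2.7 and 7.01 CPM in controls (log2 5.67, SE 0.504, adjusted p = 2.38e-05), Tnc, Dkk2 and Il1a. Calls that ended on leaving out 1 library were Add2 without control 1 or control 2 (adjusted p up to 0.0668), Tnc without knockout 1, control 1 or control 2 (adjusted p up to 0.0862) and Dkk2 without knockout 1, knockout 2, control 1 or control 2 (adjusted p up to 0.21), and that of Dkk2 also without the lung samples (adjusted p = 0.0854). Counting intervals cover counting error only.

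The upstream sequences of 4 genes are shown, those of smallest p among the genes named for the size of their change or as pan-endothelial, because ETS factors bind GGAA. Each is the 250 bases before the start of the first-listed RefSeq transcript (GRCm38.p6), with GGAA on either strand (TTCC) in capitals. For Kcnj1 this stretch lies inside the gene span given above, downstream of the annotated gene start. Mfng, which ranked among them, has no entry, and Sftpa1 was left out as a lung epithelial gene.
Ushbp1, fell, chr8:71395802-71396051, minus strand: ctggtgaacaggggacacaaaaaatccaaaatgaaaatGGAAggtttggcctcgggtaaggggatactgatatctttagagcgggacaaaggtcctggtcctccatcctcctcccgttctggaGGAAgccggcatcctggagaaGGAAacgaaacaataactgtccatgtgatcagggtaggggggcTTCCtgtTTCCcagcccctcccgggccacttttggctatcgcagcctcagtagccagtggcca
Hspa12b, fell, chr2:131127162-131127411, plus strand: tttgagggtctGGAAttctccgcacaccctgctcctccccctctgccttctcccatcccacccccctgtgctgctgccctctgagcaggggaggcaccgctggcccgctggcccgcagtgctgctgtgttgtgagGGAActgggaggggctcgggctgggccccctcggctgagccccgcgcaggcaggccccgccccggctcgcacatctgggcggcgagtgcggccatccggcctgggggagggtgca
Rasgrp2, fell, chr19:6399625-6399874, plus strand: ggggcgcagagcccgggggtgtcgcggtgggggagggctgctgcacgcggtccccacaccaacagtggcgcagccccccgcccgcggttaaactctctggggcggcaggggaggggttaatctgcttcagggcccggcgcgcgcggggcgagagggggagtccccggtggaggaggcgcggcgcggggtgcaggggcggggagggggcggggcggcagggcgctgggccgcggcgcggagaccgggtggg
Kcnj1, rose, chr9:32393735-32393984, plus strand: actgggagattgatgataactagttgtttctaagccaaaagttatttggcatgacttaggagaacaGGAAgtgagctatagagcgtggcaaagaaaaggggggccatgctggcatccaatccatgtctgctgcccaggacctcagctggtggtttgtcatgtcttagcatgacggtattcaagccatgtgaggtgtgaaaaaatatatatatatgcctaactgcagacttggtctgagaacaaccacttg
The Ushbp1 sequence holds 5 such cores, a pair of them close together, Hspa12b 2, Kcnj1 1 and Rasgrp2 0, and none holds the longer ETS sequence CCGGAAGT. Over all 27025 promoters of this length GGAA on either strand is found in 93.4%. It was found in 92.9% of the promoters of genes that fell (1300 with a sequence), 92.8% of those of genes that rose (1493) and 93.3% of those of tested genes that did not pass (10236). CCGGAAGT was in 4.15%, 4.42% and 5.33% of these promoters, and TGACTCA, bound by AP-1 factors, in 3.23%, 5.02% and 3.22%, against 4.43% of all promoters. These shares are descriptions of 250 bases and of the motif letters only, and the groups also differ in GC content (60.2%, 59.2% and 58.7%).

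Genes that define endothelium in every organ fell in part. Of 44 pan-endothelial genes 20 fell and 2 rose, where 9.09% of all genes fell, and their median log2 change was −0.76, against 0.01 for all genes. Ushbp1, which encodes a harmonin-binding protein, had 104 and 137 CPM in knockout libraries, against 1748 and 1632 CPM in controls (log2 −3.81, SE 0.366, adjusted p = 3.48e-05). Hspa12b, an endothelial heat shock protein, had 121 and 119 CPM in knockout libraries, against 553 and 669 CPM in controls (log2 −2.35, SE 0.167, adjusted p = 4.13e-06), and Robo4, an endothelial guidance receptor that steadies vessels, had 159.6 and 139 CPM against 755 and 759.9 CPM (log2 −2.34, adjusted p = 0.000366). Also lower were Cyyr1 (log2 −1.65) and Rasip1, a Rap1 effector at junctions (log2 −1.38). The 2 risers, Tal1 and Lyl1, are also blood cell factors, and their calls ended on leaving out 1 library: Tal1 without knockout 2 or control 2 (adjusted p up to 0.11) and Lyl1 without knockout 2 or control 1 (adjusted p up to 0.139). The number that fell was 10 to 18 on leaving out 1 library, fewest without control 2.

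Not all of them passed the threshold, and a gene that did not pass may still be lower. Cdh5, Emcn, Vwf and Nos3 had both knockout libraries below both controls, as did 29% of all tested genes. Cdh5 (adjusted p = 0.243) and Pecam1 (0.94) did not pass, but cells lacking either protein would not have been sorted. Eng, a TGF-beta family co-receptor, had 2064 and 2643 CPM in knockout libraries, against 2557 and 2753 CPM in controls, with overlapping groups (adjusted p = 0.716). Emcn, which encodes endomucin, had 247 and 325 CPM against 384 and 389.9 CPM (log2 −0.44, adjusted p = 0.174). Vwf, the clotting factor that endothelium stores, had 282 and 297 CPM against 364 and 757 CPM, and the controls differed from each other (log2 −0.95, adjusted p = 0.309). Nos3, endothelial nitric oxide synthase, had 287 and 227 CPM against 406 and 353 CPM (log2 −0.56, adjusted p = 0.103). Cldn5, a tight junction protein, was the one gene of the panel of 12 with both knockout libraries higher, at 514 and 519 CPM against 387 and 373 CPM (log2 0.44, adjusted p = 0.179). Of all tested genes, 30% had both knockout libraries above both controls.

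Receptors for vessel growth factors fell. Kdr, the main VEGF receptor, had 944 and 1294 CPM in knockout libraries, against 3309.8 and 2839 CPM in controls (log2 −1.46, SE 0.261, adjusted p = 0.00183). Its knockout libraries were both below both controls, as was so for 29% of all tested genes. Tie1 had 588 and 736 CPM in knockout libraries, against 1673 and 1768 CPM in controls (log2 −1.38, SE 0.196, adjusted p = 0.000441). Flt1, the VEGF decoy receptor, had 904 and 1211 CPM against 2039 and 2398 CPM (log2 −1.07, adjusted p = 0.0106) and Tek, the angiopoietin receptor, 331 and 346 CPM against 591 and 608 CPM (log2 −0.83, adjusted p = 0.0295). The list of 21 VEGF and angiopoietin genes had 5 that fell, with the ligand Pdgfd (log2 −1.15) the fifth, and 4 that rose, Vegfa, Pgf, Angptl4 and the adaptor Shb (61.2 and 53 CPM against 17.4 and 18.9 CPM). Of all tested genes 9.09% fell and 10.2% rose. The angiopoietin Angpt2 had 36.6 and 39.8 CPM against 42.4 and 29.4 CPM, overlapping. Calls that ended on leaving out 1 library were Flt1 without knockout 1 or control 2 (adjusted p up to 0.109), Tek without knockout 1, knockout 2, control 1 or control 2 (adjusted p up to 0.147), Vegfa without knockout 1, control 1 or control 2 (adjusted p up to 0.136), Pgf without knockout 1, control 1 or control 2 (adjusted p up to 0.148) and Angptl4 without knockout 1 or control 1 (adjusted p up to 0.115). The calls for Vegfa and Pgf also ended without the lung samples (adjusted p = 0.0594 and 0.0584), and the one for Tek without the liver samples (adjusted p = 0.0697). The numbers that fell and rose were 3 to 4 and 1 to 4 on leaving out 1 library, and without the lung samples 2 rose.

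Genes chosen to mark heart endothelium among organs had the lowest median of the endothelial lists. Of 23 such genes 10 fell and 0 rose, with a median log2 change of −1.22; the number was 4 to 9 on leaving out 1 library, fewest without knockout 1. In the control libraries 14 of the 23 were higher in heart than in both liver and lung. Of these 14, 6 fell and 0 rose in the knockout, where 9.09% of all genes fell. Tcf15, a factor that works with MEOX2 in heart endothelium, had 16.7 and 27 CPM in knockout libraries, against 261 and 326 CPM in controls (log2 −3.75, SE 0.568, adjusted p = 0.000653). Eepd1 had 26.9 and 27.6 CPM in knockout libraries, against 125 and 131 CPM in controls (log2 −2.23, adjusted p = 0.000279), and Tspan13, a tetraspanin, had 75 and 138 CPM against 635 and 709 CPM (log2 −2.66, adjusted p = 0.00205). Tspan13 was not higher in heart than in lung in controls, with means of 672.1 CPM in heart and 840.2 CPM in lung. Meox2 itself had 113 and 229 CPM against 187 and 216 CPM, and knockout 2 was above both controls (adjusted p = 0.863). Timp4 (101 and 175 CPM against 162 and 602 CPM, adjusted p = 0.347), Wt1 (87 and 94.2 CPM against 91.9 and 75.6 CPM) and Btnl9 (119 and 243 CPM against 944 and 1004 CPM, adjusted p = 0.0721) also missed the threshold. Btnl9 passed it under 5 of 14 alternative settings.

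Genes of fatty acid handling fell in part. Lipe, hormone-sensitive lipase, had 23.9 and 19.8 CPM in knockout libraries, against 188 and 245 CPM in controls (log2 −3.31, SE 0.278, adjusted p = 1.62e-05). Acsl1, which activates fatty acids, had 19.4 and 23.4 CPM against 47.1 and 51.5 CPM (log2 −1.20, adjusted p = 0.00212). Gpihbp1, which carries lipoprotein lipase to the capillary lumen, had 93.1 and 199 CPM against 694 and 884 CPM (log2 −2.44, adjusted p = 0.00555). Aqp7, a glycerol channel (log2 −3.32), fell too. Angptl4, an inhibitor of lipoprotein lipase, rose, with 251 and 141 CPM in knockout libraries, against 10.9 and 27.8 CPM in controls (log2 3.34, SE 0.829, adjusted p = 0.0129). The abundant carriers did not pass: Fabp4 had 1847 and 2623 CPM against 4258 and 6031 CPM (log2 −1.20, adjusted p = 0.281), the fatty acid receptor Cd36 1568 and 3544 CPM against 4487 and 5822 CPM (log2 −1.01, adjusted p = 0.0677) and Lpl 137 and 329 CPM against 618 and 1801 CPM (log2 −2.37, adjusted p = 0.0791). Each had both knockout libraries below both controls, as did 29% of all tested genes. Cd36 passed under 4 of 14 and Lpl under 4 of 13 alternative settings. In all, 7 of 31 genes fell, where 9.09% of all genes did, and the median log2 of the list was −0.24. The 3 that rose are a share near the 10.2% of all genes. The number that fell was 3 to 6 on leaving out 1 library, fewest without knockout 1. The number that rose was 0 to 3, with 0 without knockout 1, and the calls among those named that ended were Gpihbp1 without knockout 1 (adjusted p up to 0.0702), Aqp7 without knockout 1 or control 2 (adjusted p up to 0.109) and Angptl4 without knockout 1 or control 1 (adjusted p up to 0.115).

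**Figure D3:**
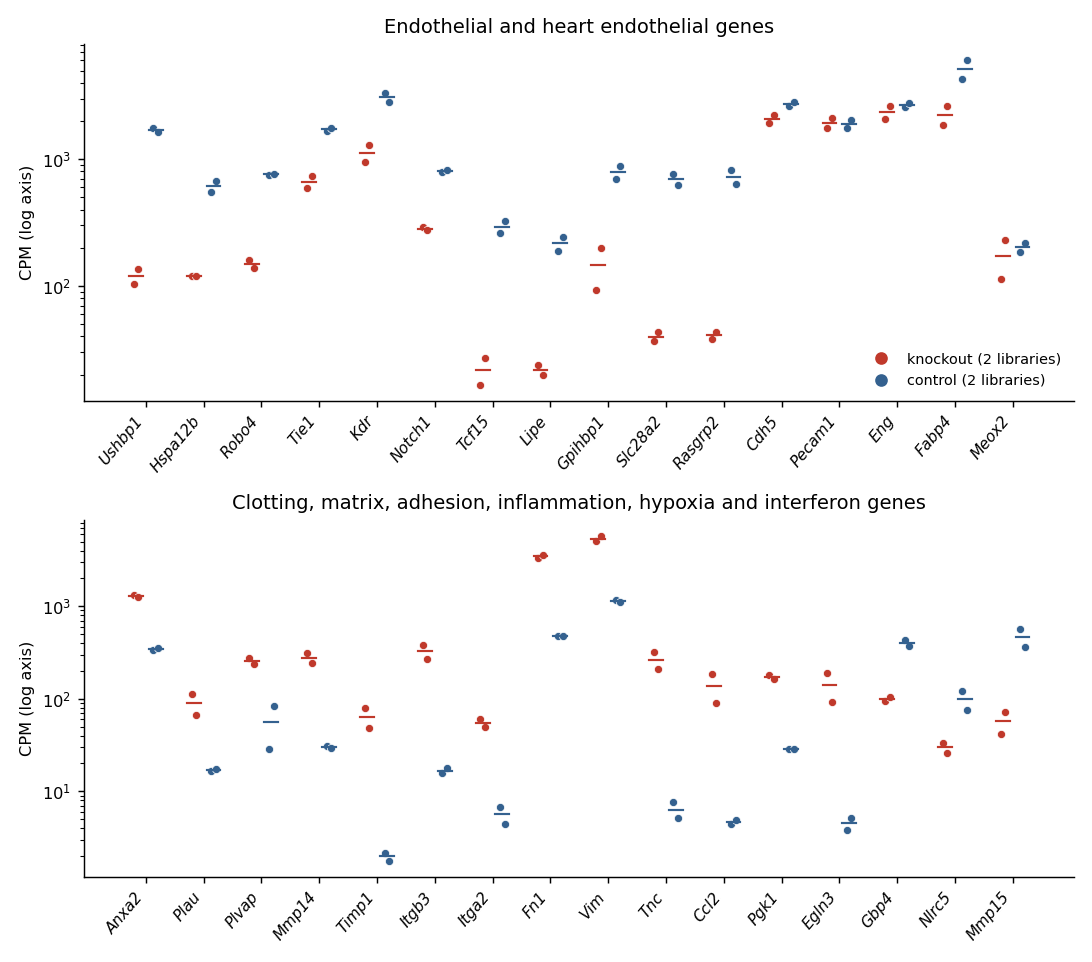
Level in CPM, on a log axis, of 32 genes in each heart library, knockout in red and control in blue, with a bar at the mean. In the upper panel the genes from Ushbp1 to Rasgrp2 are lower in both knockout libraries while Pecam1, Eng and Meox2 overlap, and in the lower panel the genes from Anxa2 to Egln3 are higher and Gbp4, Nlrc5 and Mmp15 lower.

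The balance of higher and lower calls among arterial genes depended on the samples fitted. Of 27 arterial genes 7 fell and 2 rose (median log2 −0.15), where 9.09% of all genes fell and 10.2% rose. A fit of the heart samples alone gave 9 higher and 10 lower, and one without the liver samples 8 higher and 7 lower. Notch1, a receptor of arterial identity, had 290.1 and 275 CPM in knockout libraries, against 788 and 822 CPM in controls (log2 −1.51, SE 0.255, adjusted p = 0.00125), Hey1, a Notch target, 11.2 and 29.6 CPM against 127 and 136 CPM (log2 −2.69, adjusted p = 0.0039), and the ligand Dll4 169.8 and 124 CPM against 291 and 366 CPM (log2 −1.16, adjusted p = 0.0137). The arterial genes Efnb2 (log2 −0.15, adjusted p = 0.822) and Sox17 (378 and 399 CPM against 361 and 478 CPM, adjusted p = 0.754) did not pass. Of 18 venous genes 7 rose and 1 fell, Aplnr (median log2 1.31). Slco2a1, a prostaglandin transporter, had 136 and 151 CPM in knockout libraries, against 30.8 and 46.6 CPM in controls (log2 1.89, adjusted p = 0.00208), Selp, P-selectin, had 45.4 and 18.4 CPM against 2.38 and 2.66 CPM (log2 3.66, adjusted p = 0.00301), and the matrix proteoglycan Bgn had 807 and 883 CPM against 246 and 275 CPM. Nr2f2, the venous factor, had 47.3 and 45.5 CPM against 27.3 and 47.8 CPM, overlapping, and the venous receptor Ephb4 257 and 363 CPM against 424 and 489.8 CPM (adjusted p = 0.0839). Calls that ended on leaving out 1 library were Hey1 without knockout 1 (adjusted p up to 0.0527), Dll4 without knockout 2 or control 2 (adjusted p up to 0.0989) and Aplnr without knockout 1, knockout 2, control 1 or control 2 (adjusted p up to 0.148). On leaving out 1 library the arterial rises became 0 and the falls 2 to 4. The 7 venous rises became 3 to 4, and 4 without the lung samples.

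In the Notch pathway 7 of 22 genes fell and 1 rose (median log2 −0.29), where 9.09% of all genes fell and 10.2% rose. Mfng, a fringe enzyme that modifies Notch receptors, had 8.51 and 6.19 CPM in knockout libraries, against 118 and 119.9 CPM in controls (log2 −4.02, SE 0.371, adjusted p = 2.8e-05). Adam17, a sheddase, had 81.5 and 91.1 CPM against 134 and 119.9 CPM (log2 −0.56, adjusted p = 0.0052), and Jag1, a ligand, had 177 and 153 CPM against 139 and 164 CPM, overlapping. The number that fell was 3 to 5 on leaving out 1 library, and Adam17 without knockout 1 or control 1 (adjusted p up to 0.0657) was a call that ended.

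Junction genes were split between 9 of 29 that fell and 6 that rose, where 9.09% of all genes fell and 10.2% rose. Afdn, afadin, a link from nectins to actin, had 218 and 248 CPM in knockout libraries, against 1056 and 1176 CPM in controls (log2 −2.26, SE 0.169, adjusted p = 5.91e-06). Jam2, an adhesion molecule of tight junctions, had 187 and 226 CPM against 963 and 1033 CPM (log2 −2.27, adjusted p = 0.00033), and Nectin2 rose, with 56 and 51.7 CPM against 25.7 and 23.4 CPM (log2 1.13, adjusted p = 0.000326). Plvap, the diaphragm protein of fenestrae and caveolae, which capillaries of the heart carry little of, had 274 and 240.3 CPM in knockout libraries, against 28.5 and 83.2 CPM in controls (log2 2.20, SE 0.376, adjusted p = 0.00138). Of 14 caveola genes 3 fell, Cavin2 (316 and 523 CPM against 1325 and 1574 CPM), Cavin1 (log2 −0.83) and Cav2 (−1.02), and 2 rose, the rises a share near the 10.2% of all genes. Gja1, connexin 43, had 245 and 143 CPM against 418 and 476 CPM (log2 −1.20, adjusted p = 0.175). The junction falls became 3 to 9 and the rises 2 to 3 on leaving out 1 library, and the calls that ended were Cavin1 without knockout 1 or control 2 (adjusted p up to 0.09) and Cav2 without knockout 1, control 1 or control 2 (adjusted p up to 0.182).

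Clotting genes moved mostly up. Of 29 genes of coagulation and fibrinolysis 15 rose and 3 fell, with a median log2 of 1.21, where 10.2% of all genes rose and 9.09% fell. Plau, urokinase, had 113 and 66.1 CPM in knockout libraries, against 16.4 and 17.4 CPM in controls (log2 2.40, SE 0.4, adjusted p = 0.00114). Plat, tissue plasminogen activator, had 1045 and 729 CPM against 187 and 184 CPM (log2 2.26, adjusted p = 0.0464), and Anxa2, which binds it at the surface, 1321 and 1267 CPM against 338 and 354 CPM (log2 1.90, adjusted p = 0.000157). Thrombomodulin, encoded by Thbd, fell, with 482 and 576 CPM in knockout libraries, against 909 and 1266 CPM in controls (log2 −1.04, adjusted p = 0.0185). Serpinb2 had 1.91 and 0.614 CPM in knockout libraries and no count in either control, at least 30.0-fold over a floor of 3 counts. The rises were 6 to 9 on leaving out 1 library, fewest without control 1, and the falls 0 to 2. The calls that ended were Thbd without knockout 1 or control 2 (adjusted p up to 0.152) and Plat without knockout 1, knockout 2, control 1 or control 2 (adjusted p up to 0.19), and that of Plat also without the lung samples (adjusted p = 0.109).

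Of 29 genes of vascular tone 5 rose and 2 fell (median log2 −0.04), where 10.2% of all genes rose and 9.09% fell. The heart samples alone gave 9 higher and 5 lower, with a median of 0.09, and leaving out 1 library 2 to 4 higher and 1 lower. Npr1, the receptor of atrial natriuretic peptide, had 87.8 and 97.8 CPM in knockout libraries, against 448 and 453 CPM in controls (log2 −2.28, SE 0.226, adjusted p = 4.21e-05). Ddah1, which clears an inhibitor of nitric oxide synthesis, had 29.7 and 25.8 CPM against 9.49 and 10.3 CPM (log2 1.49, adjusted p = 0.00265), and Ptgis, prostacyclin synthase, had 58.5 and 35.1 CPM against 12 and 18.3 CPM (log2 1.62, adjusted p = 0.00265). Ednrb, an endothelin receptor, had 291 and 287 CPM against 154 and 144 CPM (log2 0.96, adjusted p = 0.199).

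Among 48 endothelial transcription factors 11 fell and 5 rose (median log2 −0.10), where 9.09% of all genes fell and 10.2% rose. On leaving out 1 library 5 to 8 fell and 2 to 4 rose, and with the description number as a block 8 rose, with a median of 0.02. Sox18, a factor of vessel differentiation, had 97.5 and 166 CPM in knockout libraries, against 351 and 470.0 CPM in controls (log2 −1.64, adjusted p = 0.00243), Mef2c had 80.7 and 94.7 CPM against 203 and 167 CPM (log2 −1.08, adjusted p = 0.00149), and Hhex, a homeobox factor of early endothelium, rose, with 206 and 167 CPM against 33.4 and 51.2 CPM (log2 2.14, SE 0.227, adjusted p = 6.35e-05). In the rest of the ETS family 5 of 23 fell and 2 rose, the rises a share near the 10.2% of all genes. The fallers Gabpa (log2 −0.46), Elk4 (−0.60) and Etv3 (−0.55) changed by less than 2-fold. Ets1 had 1081 and 989 CPM against 1153 and 1053 CPM and Ets2 926 and 929 CPM against 729 and 912 CPM, and neither passed (adjusted p = 0.776 and 0.576). Spi1, which encodes PU.1 and marks myeloid cells, rose, with 4.97 and 8.32 CPM against 0.348 and 0.665 CPM. The calls that ended were Gabpa without knockout 1 or control 2 (adjusted p up to 0.0595), Elk4 without knockout 2 or control 1 (adjusted p up to 0.0899) and Etv3 without knockout 1, knockout 2, control 1 or control 2 (adjusted p up to 0.0711); that of Gabpa also ended in a fit of the heart samples alone (adjusted p = 0.053) and with no filter on low counts (0.0645). The family falls became 1 to 2 on leaving out 1 library and 3 in the heart samples alone.

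Many adhesion and inflammation genes rose, where 10.2% of all genes did. Of 37 genes of leukocyte adhesion and NF-kB signalling 17 rose and 1 fell, Cxcl9 (a call that ended for Cxcl9 without knockout 1 (adjusted p up to 0.12)), and the median log2 was 1.88. Ccl2, a monocyte chemokine, had 186 and 89.3 CPM in knockout libraries, against 4.38 and 4.91 CPM in controls (log2 4.89, SE 0.834, adjusted p = 0.00135). Il1a, interleukin 1 alpha, had 35.9 and 17.8 CPM against 0.464 and 0.915 CPM (log2 5.27, adjusted p = 5.82e-05), Tnfaip2 343 and 239 CPM against 24.2 and 21.6 CPM (log2 3.67, adjusted p = 0.00147) and the adaptor Traf1 37.3 and 39.2 CPM against 13.6 and 9.06 CPM (log2 1.76, adjusted p = 0.000531). Other classical endothelial adhesion genes did not pass: Icam1 had 150.0 and 88.7 CPM against 159 and 139 CPM, overlapping (adjusted p = 0.668), and Sele, E-selectin, 152 and 39.5 CPM against 9.75 and 18 CPM (adjusted p = 0.105). The rises were 10 to 13 on leaving out 1 library, fewest without control 2. The leukocyte markers, which also rose, summed to 238 and 366.7 CPM in knockout libraries, against 34.6 and 70.1 CPM in controls, and their part in this list was not tested.

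In the complement list the number of calls depended on the setting. Of all tested genes 10.2% rose and 9.09% fell in the main fit. Of 22 complement genes 5 rose and 1 fell, led by Clu, clusterin, with 603 and 509.8 CPM in knockout libraries, against 108 and 97.3 CPM in controls (log2 2.44, SE 0.246, adjusted p = 4.63e-05). C1qa, made by macrophages, had 28.3 and 55.6 CPM against 2.52 and 7.95 CPM (adjusted p = 0.118). Of 21 blood-forming genes 7 rose, among them Runx1 (7.34 and 4.89 CPM against 0.638 and 0.527 CPM, adjusted p = 0.000779), Itga2b, a platelet integrin (34.4 and 19.9 CPM against 7.28 and 7.21 CPM, adjusted p = 0.00033), and Pf4, a platelet chemokine (20.7 and 33.3 CPM against 2.03 and 3.77 CPM, adjusted p = 0.00109), and 1 fell, Gata3. The call for Gata3 ended without the lung samples (adjusted p = 0.0976) and on leaving out 1 library: Gata3 without knockout 2 or control 2 (adjusted p up to 0.174). The complement rises numbered 10 in the heart samples alone, 10 without the lung samples, 11 with no filter on low counts and 12 by DESeq2. They were 1 to 4 and the blood-forming rises 5 to 6 on leaving out 1 library. Whether these transcripts came from endothelial cells was not tested.

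Interferon and MHC class I genes fell in large part. Of 41 interferon response genes 18 fell and 0 rose, with a median log2 of −0.93, where 9.09% of all genes fell. Gbp4, a guanylate-binding protein of cell defence, had 94 and 104 CPM in knockout libraries, against 436 and 374 CPM in controls (log2 −2.03, SE 0.204, adjusted p = 4.63e-05). Gbp9 had 146 and 155 CPM against 453 and 397 CPM (log2 −1.50, adjusted p = 0.000194), Gbp5 18.3 and 30.7 CPM against 111 and 132 CPM (log2 −2.31, adjusted p = 0.000234) and Gbp7 61 and 77 CPM against 200.1 and 187 CPM (log2 −1.49, adjusted p = 0.000498). The Gbp genes are close copies, which makes their counts uncertain. Outside that family the antiviral genes Rsad2, with 42 and 56 CPM against 214 and 263 CPM (log2 −2.28, adjusted p = 0.00127), and Samhd1, with 82.3 and 115 CPM against 216 and 215 CPM (log2 −1.13, adjusted p = 0.0027), fell. The falls were 8 to 18 on leaving out 1 library, fewest without knockout 1, and 29 with the description number as a block.

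Of 23 genes of MHC class I presentation 15 fell and 0 rose, with a median log2 of −0.91, where 9.09% of all genes fell. Nlrc5, which switches the class I genes on, had 33.3 and 26.2 CPM in knockout libraries, against 122 and 74.9 CPM in controls (log2 −1.73, SE 0.225, adjusted p = 0.000238). Tap2, which brings peptides to them, had 71.4 and 85.4 CPM against 134 and 131 CPM (log2 −0.76, adjusted p = 0.000984). H2-Q7 had 55.3 and 53.8 CPM against 267 and 199 CPM and H2-Q6 86.7 and 90.8 CPM against 441 and 341 CPM, but the H2-Q genes share sequence and their counts are uncertain. B2m, the shared light chain, had 759 and 1103 CPM against 1498 and 1406 CPM (log2 −0.64, adjusted p = 0.137). The falls were 9 to 17 on leaving out 1 library, fewest without knockout 1. MHC class II had 1 of 16 genes that rose, the protease gene Ctss (19.8 and 23.5 CPM against 1.13 and 2.08 CPM), which leukocytes express, and 1 that fell. Together these were 12.5% of the list, where 19.3% of all tested genes passed. The class II chain Cd74 had 21 and 23.1 CPM against 17.8 and 15.2 CPM and H2-Ab1 7.71 and 8.96 CPM against 11.1 and 7.26 CPM, and neither passed (adjusted p = 0.722 and 0.907).

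**Figure D4:**
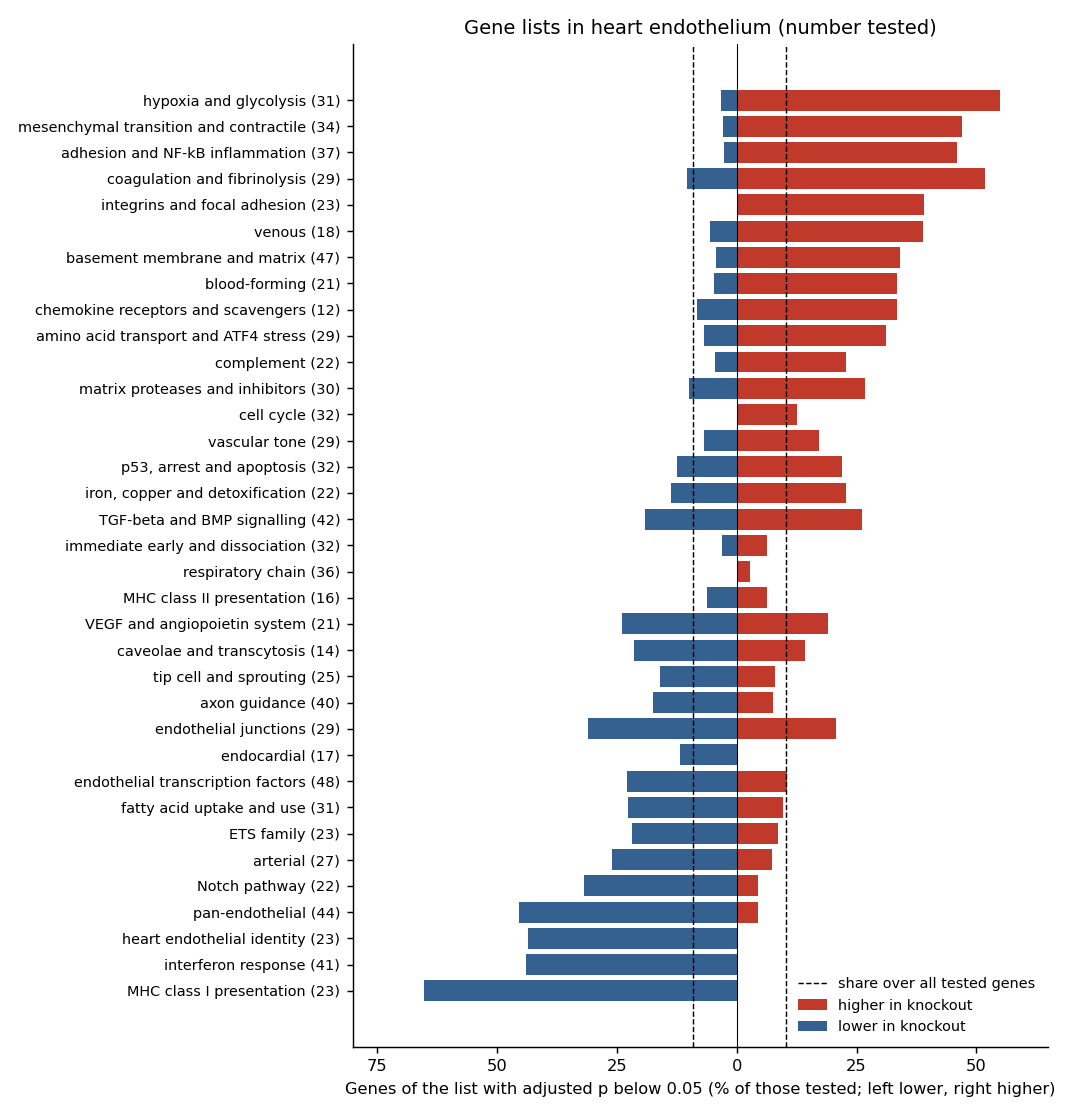
Share of each gene list that was higher (right, red) or lower (left, blue) in knockout heart endothelium at adjusted p below 0.05, ordered by the difference between both shares, with the number of genes tested in brackets. Dashed lines mark the shares over all tested genes, 10.2% higher and 9.09% lower; of the endothelial and process lists drawn, hypoxia and glycolysis (17 of 31 higher) and MHC class I presentation (15 of 23 lower) are at the ends.

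Many cytoskeletal, matrix and adhesion genes rose. Of 34 mesenchymal and contractile genes 16 rose and 1 fell, with a median log2 of 1.10, where 10.2% of all genes rose. Vim and Fn1 led them in CPM, and Itga5, the fibronectin receptor subunit, had 861 and 553 CPM in knockout libraries, against 254 and 182 CPM in controls (log2 1.70, SE 0.231, adjusted p = 0.000326). Tnc, tenascin C, had 319.7 and 208 CPM against 7.57 and 5.1 CPM (log2 5.38, adjusted p = 0.00876). The one that fell was Snai2, a transition factor, with 5.33 and 6.12 CPM against 18.8 and 23.3 CPM (log2 −1.88, adjusted p = 0.00116). Smooth muscle actin, Acta2, did not pass (log2 1.07, adjusted p = 0.446), nor did Tagln, with 1.1 and 1.05 CPM against 1.16 and 0.637 CPM (adjusted p = 0.762), and Col1a1, with 319 and 318 CPM against 128 and 86 CPM (log2 1.57, adjusted p = 0.109). The rises were 8 to 12 on leaving out 1 library, fewest without control 2, and the call that ended was Tnc without knockout 1, control 1 or control 2 (adjusted p up to 0.0862). The fibroblast markers summed to 2919 and 3790 CPM in knockout libraries, against 2232 and 2592 CPM in controls, and their part in this list was not tested.

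Of 47 genes of basement membrane and matrix 16 rose and 2 fell (median log2 0.88), where 10.2% of all genes rose and 9.09% fell. Col5a2, a fibrillar collagen chain, had 334 and 339.6 CPM in knockout libraries, against 62.8 and 58.3 CPM in controls (log2 2.48, SE 0.23, adjusted p = 2.8e-05). Emilin1, an elastic fibre glycoprotein, had 338 and 279.7 CPM against 96.7 and 113 CPM (log2 1.56, adjusted p = 0.000423). The laminin chain Lama3 fell, with 15.2 and 24.4 CPM against 89.8 and 54.6 CPM (log2 −1.87, adjusted p = 0.000802), as did Lama4, the vascular one, with 313 and 283 CPM against 601 and 478 CPM (log2 −0.86, adjusted p = 0.0046). The main basement membrane collagen Col4a1 had 6018 and 6984 CPM against 3982 and 2660.2 CPM and missed the threshold (log2 0.97, adjusted p = 0.0586), as did Sparc (2907 and 3016 CPM against 1628 and 1382 CPM, adjusted p = 0.0699). They passed it under 6 and 5 of 14 alternative settings. The rises were 8 to 14 on leaving out 1 library, fewest without control 2, and the call that ended was Lama4 without control 1 (adjusted p up to 0.058).

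Some proteases that remodel matrix, and their inhibitors, rose. Mmp14, a membrane metalloprotease, had 312 and 244 CPM in knockout libraries, against 31.2 and 29.2 CPM in controls (log2 3.20, SE 0.192, adjusted p = 1.17e-06). Timp1, a metalloprotease inhibitor, had 79.3 and 48.1 CPM in knockout libraries, against 2.18 and 1.77 CPM in controls (log2 5.01, SE 0.485, adjusted p = 3.48e-05). Mmp15, a membrane protease related to Mmp14, fell, with 41.5 and 72.7 CPM against 561 and 363 CPM (log2 −3.02, SE 0.5, adjusted p = 0.00112). Adam12 had 52.1 and 40.6 CPM against 9.08 and 6.35 CPM (log2 2.59, adjusted p = 0.000495). In all 8 of 30 rose, where 10.2% of all genes did. The 3 that fell are a share near the 9.09% of all genes, and leaving out any 1 library made them 1. Of 23 integrin and focal adhesion genes 9 rose and 0 fell, with a median log2 of 0.66. Itgb3, the partner of Itgav in the vitronectin receptor, had 385 and 269 CPM in knockout libraries, against 15.7 and 17.7 CPM in controls (log2 4.29, SE 0.585, adjusted p = 0.000328), Itgav 161 and 112 CPM against 37.9 and 32.2 CPM (log2 1.96, adjusted p = 7.26e-05) and Itga2, a collagen receptor chain, 60.8 and 49.2 CPM against 6.82 and 4.43 CPM (log2 3.29, adjusted p = 7.86e-06). Itgb4 had 131 and 115 CPM against 21.5 and 18.8 CPM and missed the threshold (adjusted p = 0.0513), but passed it under 7 of 13 alternative settings. The integrin rises were 5 to 8 on leaving out 1 library, fewest without control 2, and the protease rises 5 to 7. In the heart samples alone 15 protease genes rose.

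In TGF-beta and BMP signalling 11 of 42 genes rose and 8 fell, where 10.2% of all genes rose and 9.09% fell. Smad3, a TGF-beta effector, had 84.9 and 43.6 CPM in knockout libraries, against 13.4 and 10.5 CPM in controls (log2 2.43, SE 0.317, adjusted p = 0.000247), Tgfbr2, a receptor, 496 and 619 CPM against 214 and 220.1 CPM (log2 1.36, adjusted p = 0.000496) and the ligand Bmp2 32.6 and 22.6 CPM against 7.05 and 9.75 CPM (log2 1.71, adjusted p = 0.000339). The fallers included Ltbp4, given above, and Smad6, an inhibitor of BMP signalling, which had 66.4 and 98.8 CPM against 139 and 196 CPM (log2 −1.02, adjusted p = 0.0282), and the call ended on leaving out 1 library: Smad6 without knockout 1 or control 2 (adjusted p up to 0.225). It also ended without the liver samples (adjusted p = 0.0528). The rises were 6 to 8 and the falls 3 to 8 on leaving out 1 library.

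Hypoxia and glycolysis genes had a large share of risers, 17 of 31, with 1 that fell and a median log2 of 0.88, where 10.2% of all genes rose. Pgk1, a glycolytic kinase, had 179.8 and 165 CPM in knockout libraries, against 28.6 and 28.4 CPM in controls (log2 2.60, SE 0.226, adjusted p = 2.23e-05), and Eno1, enolase, had 455 and 388 CPM in knockout libraries, against 93.7 and 89.8 CPM in controls (log2 2.20, SE 0.23, adjusted p = 5.97e-05). Egln3, an oxygen sensor that hypoxia induces, had 188 and 92.7 CPM against 3.83 and 5.15 CPM (log2 4.96, SE 0.603, adjusted p = 0.000153), and Hif1a, the hypoxia factor itself, had 401 and 211 CPM against 77.4 and 78.2 CPM (log2 1.97, adjusted p = 6.23e-05). Epas1, which encodes the endothelial HIF-2 subunit, had 1474 and 2208 CPM against 2477 and 3325 CPM (log2 −0.66, adjusted p = 0.101). The risers were 12 to 16 on leaving out 1 library, fewest without control 2. Eno1 and Pgk1 have near-identical copies in the genome, which makes their counts uncertain.

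In the list of amino acid transport and ATF4 stress 9 of 29 genes rose and 2 fell, led by Psat1 of serine synthesis (26.4 and 25 CPM against 4.47 and 3.6 CPM, log2 2.67) and Mthfd2 of the mitochondrial folate cycle (18.4 and 13.1 CPM against 3.37 and 1.72 CPM, log2 2.63), and the rises were 3 to 7 on leaving out 1 library. Of 22 iron and detoxification genes 5 rose, among them the metallothionein Mt1 (176 and 142 CPM against 17.8 and 24.4 CPM, adjusted p = 0.000774), and 3 fell, with 3 to 5 rises on leaving out 1 library and 8 with the description number as a block. The 3 falls among iron and detoxification genes are a share near the 9.09% of all genes. Of 32 p53 and apoptosis genes 7 rose and 4 fell, where 10.2% of all genes rose and 9.09% fell. Phlda3, a p53 target, had 197 and 219 CPM in knockout libraries, against 22.5 and 29.4 CPM in controls (adjusted p = 0.000153), but Cdkn1a, the best known one, had 653 and 825 CPM against 792 and 746 CPM, overlapping (adjusted p = 0.933). Of 32 cell cycle genes 4 rose (12.5%, near the 10.2% of all genes) and 0 fell. Mcm2 (52.1 and 41.4 CPM against 19.6 and 19.3 CPM, adjusted p = 0.00363) had the smallest p, and the proliferation marker Mki67 had 51.8 and 60.8 CPM against 33.9 and 23.7 CPM (log2 0.97, adjusted p = 0.442). The rises of this list were 16 in the heart samples alone, 8 without the liver samples and 1 to 3 on leaving out 1 library. Immediate early genes, which tissue digestion can induce, had few calls, with 2 of 32 higher, 1 lower and a median log2 of −0.46. The calls were 5 higher and 2 lower in the heart samples alone, and with the description number as a block 4 higher and 0 lower with a median of 0.15. Fos had 2914 and 3006 CPM against 2885 and 5548 CPM (log2 −0.51, adjusted p = 0.718). The p53 rises were 3 to 6 and the falls 0 to 3 on leaving out 1 library.

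Of 40 axon guidance genes 3 rose, a share near the 10.2% of all genes, and 7 fell. The heart samples alone gave 9 higher and 9 lower and a fit without the liver samples 8 higher and 7 lower. Plxnb2, a semaphorin receptor, had 119 and 118 CPM against 34.2 and 39.9 CPM (log2 1.67, adjusted p = 8.78e-05), and Efna1, an ephrin, 28.4 and 29.4 CPM against 95.8 and 137 CPM (log2 −2.01, adjusted p = 0.00106). Of 17 endocardial genes 2 fell, Smad6 and Plxnd1 (11.8%, near the 9.09% of all genes), and 0 rose. Npr3, a marker of that layer, had 102 and 78.9 CPM against 25.7 and 178 CPM: its controls differed from each other by more than the knockout libraries did. The calls that ended on leaving out 1 library were Smad6 without knockout 1 or control 2 (adjusted p up to 0.225) and Plxnd1 without knockout 1, knockout 2 or control 1 (adjusted p up to 0.265). That of Plxnd1 also ended in the heart samples alone (adjusted p = 0.0552) and without the lung samples (0.0647), and that of Smad6 without the liver samples (0.0528). On leaving out 1 library the axon guidance falls became 3 to 5 and the rises 2 to 4.

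The knockout effect in heart was compared with that in liver and lung by testing the difference of effects within the fit of all 16 libraries. The difference from liver passed for 1635 genes (8.32%), that from lung for 1257 (6.4%), and both with the same sign for 534 (2.72%). Of the 3786 genes called in heart, 1234 (32.6%) were called in the same direction in liver, which is 32.4% of the 3814 liver calls (19.4% of genes tested). In lung 704 (18.6%) were, which is 42.4% of the 1662 lung calls (8.46% of genes tested). In all 3 tissues 435 genes were called in the same direction. Of 2066 genes called in heart and in neither other tissue, 319 also differed from both by the test of the difference.

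Among the losses that differed from both other tissues, Cdh23, a cadherin, had 16.2 and 17.1 CPM in knockout libraries, against 217 and 252 CPM in controls, with log2 changes of −3.82 in heart, 0.80 in liver and 1.38 in lung (adjusted p of the difference = 0.000503 against liver and 0.00032 against lung). For Slc28a2 the changes were −4.11 in heart, −0.72 in liver and −0.35 in lung (adjusted p of the difference = 0.0026 against liver and 0.0019 against lung) and for Coro6 −4.90 in heart, −0.21 in liver and −1.27 in lung (0.0131 against liver and 0.0401 against lung). Papln, a matrix protein, had 31.1 and 56.9 CPM against 298 and 242 CPM, and changes of −2.62 in heart, 1.37 in liver and 2.14 in lung (0.00686 against liver and 0.00481 against lung). Vwa1, a basement membrane protein, had 15.5 and 11.8 CPM against 121 and 71 CPM, and changes of −2.81 in heart, 1.37 in liver and 1.19 in lung (0.0174 against liver and 0.018 against lung). Lancl3 was named by the rule for the other reason: its change of 1.06 in heart (adjusted p = 0.201) was smaller than those in liver (6.68) and lung (6.13). Clmn, Synm, Ephb1 and C1qtnf9, named after their values were seen, were next. The calls in heart that ended on leaving out 1 library were Vwa1 without knockout 1, knockout 2 or control 1 (adjusted p up to 0.0947) and Papln without knockout 1 (adjusted p up to 0.0955). The difference of Coro6 from lung ended on leaving out any 1 heart library (adjusted p up to 0.148) and with the description number as a block (0.0755), and that from liver without knockout 1 or knockout 2 (up to 0.061). Both differences of Vwa1 ended without knockout 1, knockout 2 or control 1 (up to 0.0785 from liver and 0.0927 from lung), and the one from liver without the lung samples (0.0565). Those of Ephb1 ended without knockout 1, control 1 or control 2 (up to 0.103 and 0.102), and that of C1qtnf9 from lung without knockout 1 (0.0524).

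Among genes that rose more in heart by both tests, Slc34a2, Sftpc, Sftpa1, Sftpb and Scgb1a1 are genes of lung epithelium, and Hmga2 was the sixth. Hmga2 had 15.6 and 10.7 CPM in knockout hearts, with an adjusted p of the difference of 0.00091 against liver and 0.0293 against lung. The next 6 after leaving out lung epithelial genes, named after their values were seen, were Spp1, Il1a, Arg1, Lgals3, Ccl6 and Sh2d5. Il1a changed by log2 5.27 in heart, −0.44 in liver and −0.30 in lung (adjusted p of the difference = 0.000191 against liver and 0.000428 against lung), and Sh2d5 by 6.92 in heart, 2.61 in liver and 0.67 in lung (0.0199 against liver and 0.00238 against lung). Lgals3, galectin 3, had 17.3 and 16.5 CPM against 0.406 and 0.582 CPM, and Ccl6 32 and 61.5 CPM against 0.58 and 2.63 CPM, and both are macrophage genes, and the summed leukocyte markers were higher in the knockout libraries too, as given above. The call in heart that ended was Scgb1a1 without control 1 or control 2 (adjusted p up to 0.0645), also by limma voom (adjusted p = 0.0935). The difference of Hmga2 from lung ended without knockout 1 or control 2 (up to 0.0811) and by limma voom (0.0661). That of Sh2d5 from liver ended without knockout 1, control 1 or control 2 (up to 0.0878) and by voom (0.171), that of Arg1 from lung on leaving out any 1 heart library (up to 0.152) and by voom (0.16), and that of Spp1 from liver by voom (0.0712). For Scgb1a1 the difference from liver ended without knockout 2, control 1 or control 2 (up to 0.0894) and by voom (0.382), and that from lung without either control (up to 0.0662) and by voom (0.082).

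Several of the losses named above also differed from both other tissues. Lipe changed by log2 −3.31 in heart, 0.01 in liver and −0.26 in lung (adjusted p of the difference = 0.0001 against liver and 0.000348 against lung), Afdn by −2.26 in heart, 0.21 in liver and −0.23 in lung (2.86e-05 against liver and 0.000253 against lung), Rasgrp2 by −4.15 in heart, −0.71 in liver and −1.17 in lung (0.00041 against liver and 0.00181 against lung) and Hspa12b by −2.35 in heart, −0.95 in liver and −1.21 in lung (0.00128 against liver and 0.0065 against lung). Kdr, the VEGF receptor, changed by −1.46 in heart, −0.23 in liver and −0.03 in lung (0.035 against liver and 0.0223 against lung). On the rising side Mmp14 changed by 3.20 in heart, 0.71 in liver and 1.17 in lung (4.42e-05 against liver and 0.000387 against lung), Col5a2 by 2.48 in heart, 0.33 in liver and 0.12 in lung (0.000669 against liver and 0.000562 against lung), Itga5 by 1.70 in heart, −0.77 in liver and −0.34 in lung (0.000329 against liver and 0.00183 against lung) and Pgk1 by 2.60 in heart, 1.22 in liver and 0.35 in lung (0.00822 against liver and 0.000696 against lung). By contrast Tie1, at −1.38 in heart, −1.40 in liver and −1.04 in lung, and Npr1, at −2.28 in heart, −2.09 in liver and −1.39 in lung, had differences that did not pass (0.998 against liver and 0.477 against lung for Tie1, 0.742 against liver and 0.0785 against lung for Npr1), nor did Kcnj1, at 8.34 in heart, 9.62 in liver and 7.96 in lung. Of these differences, those of Kdr ended: from liver without knockout 1, control 1 or control 2 (adjusted p up to 0.134) and without the lung samples (0.072), and from lung without knockout 1 or control 1 (up to 0.111). These genes were chosen after their values were seen.

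**Figure D5:**
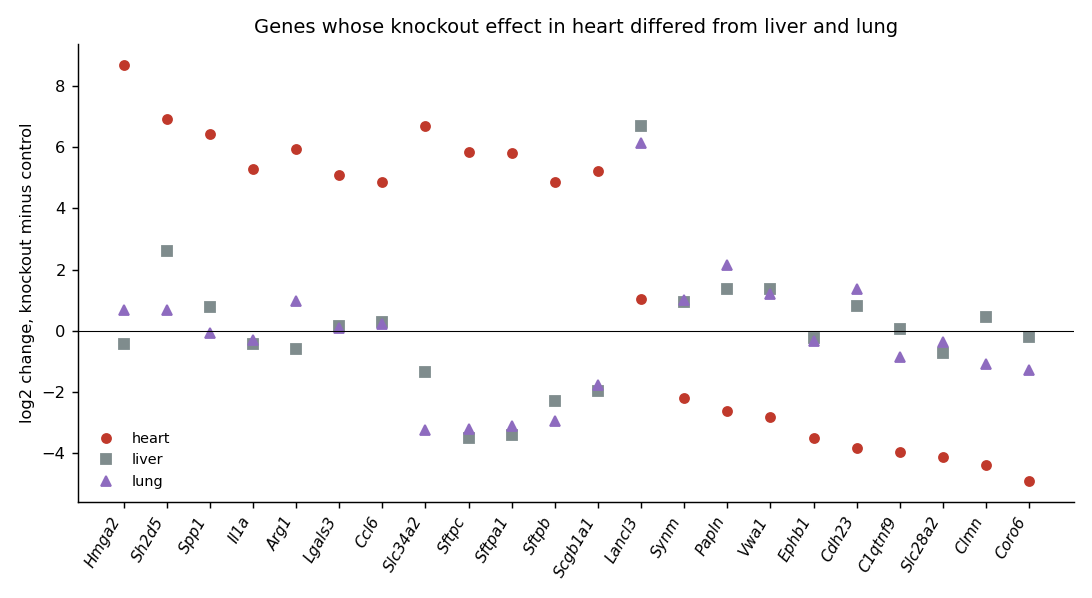
log2 change, knockout minus control, of 22 genes in heart (circles), liver (squares) and lung (triangles) for genes whose heart effect differed from both other tissues. Hmga2 to Scgb1a1 lie higher in heart, Lancl3 rose in liver and lung with 1.06 in heart, and Synm to Coro6 are lower in heart.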

How the data were processed

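RNA sequencing measured gene expression in sorted endothelial cells of 16 libraries, 4 of them from heart. The deposited values are whole-number read counts per gene for 52636 genes. Per the submitters' processing notes, FastQC 0.11.5, STAR 2.7.6a and the GRCm38 build were used. The counting program, its annotation and its strand setting are unknown here, so a gene and an overlapping antisense gene cannot be told apart. Genes were filtered with edgeR's filterByExpr (minimum count 10, minimum total 15), which kept 19646, scaled by TMM and fitted with edgeR 4.0.16's quasi-likelihood model (R 4.3.3) over all 6 groups, which share 1 estimate of the spread. P-values were Benjamini-Hochberg adjusted over all genes tested, with a threshold of 0.05. Alternatives used DESeq2 1.42.0, limma 3.58.1, other scalings and filters, fewer samples, a replicate block and each heart library left out. On simulated counts the same fit missed most of the smaller changes built in and many of the larger, and the limit for accepting that check was set after its result was seen, so a gene that did not pass may still differ.

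Genes were named by fixed rules: both targets, 12 endothelial genes, the 12 largest rises and falls by log2 and the 6 by CPM (at least 10 CPM in the higher group, libraries not overlapping, without Gm or Rik names, Xist, Y-linked genes and markers of other cell types, a list that did not hold lung epithelium), up to 4 members per list by smallest p with defining members that did not pass, and up to 6 genes each way that differed from both other tissues. Names outside these rules were picked with their values in view. The members and lists were chosen with earlier results of these data known. An exact two-sided permutation test of 2 against 2 libraries cannot go below p = 0.333, so none was used. Total counts were 33812628 to 38127197 per heart library. Intervals cover counting error only. A few genes that these rules name are not reported here.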

Additional observations from a re-analysis of the deposited data

Results flagged for a closer look

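The following genes had knockout effects in heart that differed from those in both liver and lung by the test of the difference (edgeR quasi-likelihood, Benjamini-Hochberg adjusted over all genes). Higher in heart were Hmga2, by log2 9.12 relative to liver and 7.99 relative to lung, Slc34a2 (8.04 and 9.92), Sftpc (9.32 and 9.02), Sftpa1 (9.20 and 8.93), Sftpb (7.14 and 7.78) and Scgb1a1 (7.20 and 7.0). Lower in heart were Coro6, by log2 −4.69 relative to liver and −3.63 relative to lung, Slc28a2 (−3.39 and −3.76), Lancl3 (−5.63 and −5.07), Cdh23 (−4.62 and −5.20), Vwa1 (−4.18 and −4.0) and Papln (−3.99 and −4.76). The adjusted p of the differences were 3.42e-05 against liver and 7.54e-06 against lung for Sftpa1, the smallest of the 12 on both, and 0.0131 against liver and 0.0401 against lung for Coro6. Slc34a2, Sftpc, Sftpa1, Sftpb and Scgb1a1 are lung epithelial genes. Sftpc changed by log2 5.83 in heart, −3.49 in liver and −3.19 in lung. Its liver levels were low, at 2.98, 3.51 and 0.213 CPM in controls, against 0.129, 0.261 and 0.191 CPM in knockout libraries. Liver control 3 thus lay within the range of the liver knockout libraries.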

How the results depend on the processing

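None of the 3786 genes called in heart was called in the opposite direction under any of the 14 alternatives. Leaving out 1 heart library gave 1793 to 2944 calls in place of 3786, with 963 to 1547 higher and 680 to 1397 lower, and 1200 to 2007 of at least 2-fold in place of 2195. The differences from liver and lung then passed for 711 to 1074 and 467 to 989 genes, in place of 1635 and 1257. Of the 3786 calls, 1696 were kept without knockout 1, 2529 without knockout 2, 1820 without control 1 and 1804 without control 2. Each such fit leaves a group with 1 library, assumed to vary like the others. DESeq2 gave 2673 genes that differed from liver and 2154 from lung. The other settings kept all counts over genes within 1.5 times. Some further named genes that missed the threshold passed it under alternatives, among them Ephb4 (4 of 14), Epas1, Sele and C1qa (3 of 14 each) and Fabp4 (2 of 13). By title number, deviations from the group means had r = 0.0465 between same-numbered knockout and control libraries. With 2 libraries a group those deviations are exact opposites, so both pairs give the same value. It cannot show whether the numbers pair the libraries. With the title number as a replicate block 3976 genes were called (2097 higher, 1879 lower), and with the description number 3791 (2076 and 1715). Total counts of the heart libraries lay between 33812628 and 38127197, and the 2 libraries a group limit every test.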
